A study of Mus musculus with 2 samples.

Results

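The 10 immediate early genes Fos, Fosb, Fosl1, Fosl2, Jun, Junb, Jund, Egr1, Egr2 and Atf3 were followed in mouse back skin injected with fibroblast growth factor 18 (FGF18) or with phosphate-buffered saline (PBS). They were selected by gene symbol, with no threshold on their signals. Of the 10 symbols, 9 were found as such on the array, with 11 probes. Jund was listed there under its older name Jund1 and was matched through its RefSeq accession, which brought the total to 12 probes on 39 spots, out of 27580 gene names on the array. All 10 genes and all 12 probes were well above background on both arrays, as were 16611 genes in all.

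Both groups were male C3H/HeN mice, 61 days of age, in which hair growth had been induced by depilation of the back 5 days before the skin was taken. The FGF18 group received 1 µg of FGF18 protein under the skin on day 4 of the induced growth phase (anagen) and the control group PBS, and full-thickness skin was collected 24 h after the injection. The labels name 3 mice and poly(A) RNA that was pooled within a group, although the extraction notes describe separate extraction from each mouse, and each group was hybridised to 1 single-colour Agilent array. The design thus gives no spread between animals, and no test and no p-value can be had for any gene. The PBS sample is called telogen in its title and anagen in its other labels. The 9 markers of the anagen follicle (such as Krt35, Krt25 and Shh), the 6 of keratinocytes and the 6 of fibroblasts were all measured on both arrays, the PBS array included.

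Immediate early genes are transcribed within minutes of a stimulus, without new protein synthesis, and their messages are as a rule short-lived. Fos and Jun proteins pair through a leucine zipper to form the transcription factor AP-1. AP-1 binds the element TGACTCA, and it acts in wound healing, inflammation and the terminal differentiation of the epidermis. Egr1 and Egr2 are zinc finger factors that bind GC-rich elements, and Egr2, also known as Krox-20, marks part of the hair follicle. Atf3 is a stress-induced member of the CREB and ATF family that pairs with itself or with Jun proteins. Growth factors such as the FGFs reach these genes through MAP kinases, which act on serum response factor (SRF) and its partners at the CArG box and on CREB proteins at the cyclic AMP response element (CRE). The samples were taken 24 h after the injection, long after the usual window of an immediate early response.

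The promoters of 4 members are shown because they are the 2 genes with the highest ratios (Atf3 and Fos), the gene with the lowest (Jund) and the gene whose window held both a CArG box and a CRE part (Egr2). Each sequence is the 250 bases directly upstream of the annotated start, 5′ to 3′ on the gene's strand, from RefSeq on build GRCm38.p6, at chr1:191183334-191183583 on the minus strand for Atf3, and on the plus strand at chr12:85473640-85473889 for Fos, chr10:67537619-67537868 for Egr2 and chr8:70697489-70697738 for Jund. Capitals mark the letters TGACGT (the left part of the CRE) or its reverse complement and, in Egr2, the CArG box that stands before it; the Jund window held neither.
Atf3: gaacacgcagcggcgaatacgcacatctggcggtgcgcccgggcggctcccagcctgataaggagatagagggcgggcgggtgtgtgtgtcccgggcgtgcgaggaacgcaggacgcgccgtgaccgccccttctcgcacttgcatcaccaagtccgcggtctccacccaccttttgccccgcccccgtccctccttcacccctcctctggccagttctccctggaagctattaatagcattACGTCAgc
Fos: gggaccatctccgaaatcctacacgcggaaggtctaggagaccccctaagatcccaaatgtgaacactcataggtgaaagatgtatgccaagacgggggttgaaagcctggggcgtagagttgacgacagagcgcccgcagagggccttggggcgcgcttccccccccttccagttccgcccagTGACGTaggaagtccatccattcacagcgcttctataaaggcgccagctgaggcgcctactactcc
Egr2: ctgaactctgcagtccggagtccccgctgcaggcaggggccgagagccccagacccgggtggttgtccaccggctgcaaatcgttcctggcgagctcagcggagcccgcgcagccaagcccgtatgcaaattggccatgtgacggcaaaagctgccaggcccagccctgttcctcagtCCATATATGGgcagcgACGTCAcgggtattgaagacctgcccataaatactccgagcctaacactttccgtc
Jund: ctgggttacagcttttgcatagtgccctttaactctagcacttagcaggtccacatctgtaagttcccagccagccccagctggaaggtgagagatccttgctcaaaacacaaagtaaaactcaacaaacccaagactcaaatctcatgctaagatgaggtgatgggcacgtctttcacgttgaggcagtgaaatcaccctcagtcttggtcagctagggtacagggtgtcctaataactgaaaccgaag
The letters TGACGT lay 66 to 61 bases upstream of the start in Fos and, on the reverse strand, 8 to 3 bases upstream in Atf3 and 56 to 51 bases upstream in Egr2. The CArG box of Egr2 lay 72 to 63 bases upstream.

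Of the 10 members, 8 had an entry in the promoter table (Egr2 had 5, of which 1 is shown), and each entry was searched on both strands. Egr1 and Fosl1 had no entry and were not searched. A member was counted if any of its entries held the match, whereas the percentages are shares of single windows. TGACGT, added to the search after the sequences had been read, was found in 3 of these 8 genes and in 6.47% of the 32851 windows of the same length. The full CRE, TGACGTCA, was found in none of the 8 and in 1.55% of windows, and the AP-1 element (TGACTCA or its reverse complement TGAGTCA) in none of the 8 and in 4.46%. An Egr element (GCGTGGGCG or GCGGGGGCG) was found in Fosb and Fosl2 and in 3.06% of windows. The CArG box was found in Egr2 and in 1.47% of windows. These are matches of letters within 250 bases and do not show that a factor was bound.

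Ratios are given as log2 of the FGF18 signal over the PBS signal, after each array's log2 signals were set relative to its 75th percentile. This scaling shifts every log2 ratio by -0.19, and the median of all 16611 genes was -0.07 on that scale, so the distance of each member from that median is also given. Technical error was available in 2 forms. The scanner software's error model gives each spot an error of about 0.1 of its signal plus a background term. For Fos, Jun and Egr2, each printed 10 times per array, the spread of the ratio over spot pairs at the same position could be measured. Among non-control probes printed at least 8 times, the median SD of that ratio was 0.133 for the dimmest signals (45 probes), 0.051 for the middle (50 probes) and 0.029 for the brightest (85 probes). Neither error includes the difference between mice, injections or RNA preparations.

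**Figure D1:**
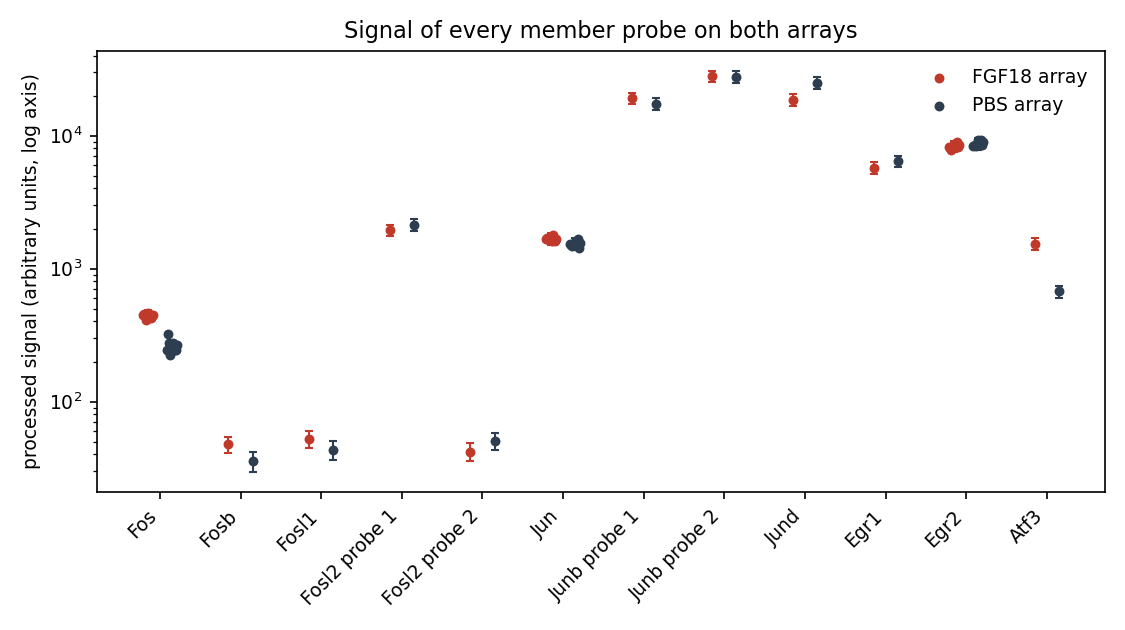
Processed signal in arbitrary units (log axis) of each of the 12 member probes on the FGF18 array (red) and the PBS array (dark blue). Points are spots, 10 for Fos, Jun and Egr2 (9 for Jun on the FGF18 array) and 1 for the others, and bars are the scanner software's error. The Atf3 and Fos points stand apart between the arrays, while those of Jun, Junb and Egr2 lie at nearly the same height.

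Atf3, the stress-induced factor of the CREB and ATF family, had the highest ratio of the 10 genes. The single Atf3 spot read 1540 ± 154 with FGF18 and 673 ± 67.5 with PBS (scanner error). Its scaled log2 ratio was 1.01 ± 0.20 (error model), a 2.01-fold higher level with FGF18, and it lay 1.08 above the median of all genes. It was the only member at least 2-fold higher on the FGF18 array, where 254 of the 16611 genes, 1.53%, were at least as far apart. A ratio at or above that of Atf3 was found in 1.499% of all genes and in 1.72% of the 5537 genes of middle signal. The value passed the 2-fold line by less than either technical error. In whole skin, more RNA per cell and more cells of a type that carries it cannot be told apart, for Atf3 as for the other members.

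Of the Fos family, which supplies the partners that need a Jun protein to bind DNA, Fos had the highest ratio. The 10 Fos spots on the FGF18 array ran from 412 through a median of 447 to 465, with a mean of 443 ± 15.7 (SD). On the PBS array they ran from 224 through 255 to 320, with a mean of 261 ± 26.5 (SD). Before scaling, the Fos spots of the arrays did not overlap, with 412 as the lowest on FGF18 and 320 as the highest on PBS. How many other repeated probes did not overlap was not counted. The log2 ratio was 0.59 ± 0.11 (SD over 10 spot pairs of 1 pair of arrays) or ± 0.21 by the error model, a 1.502-fold higher level, and lay 0.66 above the median of all genes. All 10 pairs lay above that median, from 0.32 to 0.69. The SD of the Fos pairs, 0.107, was the largest of the 50 repeated probes of middle signal. Among all genes, 3.77% had a ratio at or above that of Fos, as had 3.88% of those with middle signal.

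The other Fos family members were nearer to the median of all genes or below it. Fosb, a close relative of Fos, had signals of 47.8 ± 6.80 with FGF18 and 35.7 ± 6.14 with PBS (scanner error), a log2 ratio of 0.24 ± 0.32. Fosl1, which encodes Fra-1, had signals of 52.5 ± 7.52 and 43.6 ± 7.08, a log2 ratio of 0.08 ± 0.31. Both values were smaller than their own technical error, and both genes were near the lowest signals that the arrays could measure, 23.3 with FGF18 and 24.2 with PBS. Fosl2, which encodes Fra-2, was read by 2 probes. Its brighter probe gave 1940 ± 194 with FGF18 and 2140 ± 214 with PBS, a log2 ratio of -0.33 ± 0.20. Its dimmer probe gave 42.1 ± 6.60 and 50.5 ± 7.28, a log2 ratio of -0.45 ± 0.31. The Fosl2 probes thus lay on the same side, with a mean of -0.39, or 1.31-fold lower with FGF18. Of the 4 family members, 3 lay above the median of all genes and 1 below, and Fosl1 moved below it with normexp background correction.

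The Jun family, whose proteins can pair with each other or with Fos proteins, held no gene above 0 on the scaled log2 axis, although Jun passed 0 in 4 of 12 alternative settings, Junb in 3 and Jund in 1. Jun spots ran from 1620 through 1680 to 1800 on the FGF18 array, where 1 of 10 spots was left out as an outlier by the scanner software, with a mean of 1680 ± 54.1 (SD). On the PBS array they ran from 1430 through 1540 to 1660, with a mean of 1542 ± 67.1 (SD), so the spots of the arrays overlapped before scaling. The log2 ratio of Jun was -0.06 ± 0.04 (SD over 9 spot pairs), and 7 of the 9 pairs lay above the median of all genes and 2 below. Junb, an AP-1 subunit that is abundant in epidermis, gave 19100 ± 1910 and 17400 ± 1740 on its first probe, a log2 ratio of -0.05 ± 0.20. Its other probe gave 27900 ± 2790 and 27800 ± 2780, a log2 ratio of -0.18 ± 0.20. Both Junb ratios were within their technical error of 0.

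Jund, which encodes the Jun protein that cells make most constantly, was the lowest of the 10 genes. Its signal was 18600 ± 1860 with FGF18 and 25000 ± 2500 with PBS (scanner error, 1 spot each). Its log2 ratio was -0.61 ± 0.20, a 1.53-fold lower level with FGF18 and a distance of -0.54 from the median of all genes. A ratio at or below that of Jund was found in 4.47% of all genes and in 2.11% of the 5537 genes of bright signal.

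Both Egr genes lay a little below the median of all genes. Egr1, a growth factor-induced zinc finger factor, gave 5710 ± 571 with FGF18 and 6410 ± 641 with PBS, a log2 ratio of -0.35 ± 0.20, or 1.28-fold lower. Egr2 spots ran from 7850 through 8225 to 8940 on the FGF18 array, with a mean of 8318 ± 335 (SD, 10 spots). On the PBS array they ran from 8380 through 8545 to 9210, with a mean of 8709 ± 322 (SD, 10 spots). The Egr2 spots of the arrays overlapped before scaling. Pair by pair after scaling, the log2 ratio of Egr2 was -0.25 ± 0.02 (SD over 10 spot pairs), from -0.28 to -0.22, and all 10 pairs lay below the median of all genes. That spread was small for its signal, since 72 of the 85 bright repeated probes had a larger one. A small spread over spots of 1 array pair says nothing of the spread between mice.

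**Figure D2:**
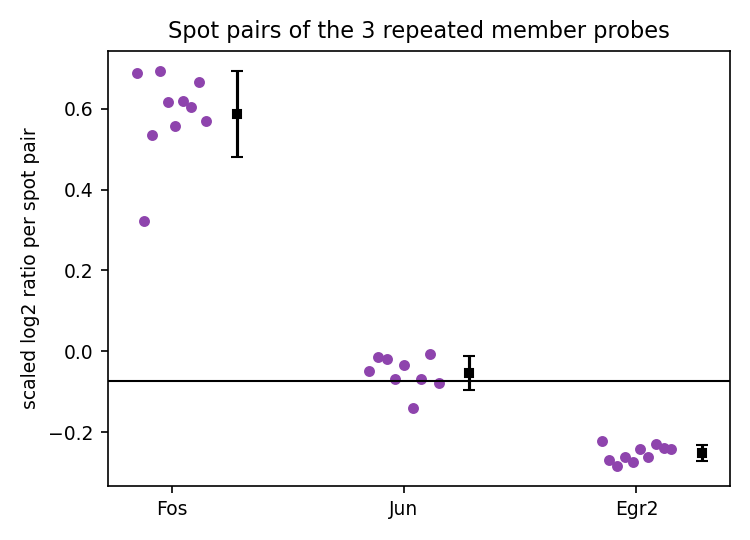
Scaled log2 ratio of FGF18 over PBS for each spot pair of the 3 member probes printed 10 times, with the mean and SD as squares and bars and the median of all genes (-0.07) as a line. All 10 Fos pairs lie above the line, all 10 Egr2 pairs below it, and the 9 Jun pairs on both sides of it.

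The 10 genes had a median log2 ratio of -0.09, next to -0.07 for all 16611 genes. Of the 10, 5 lay above the median of all genes (Fos, Fosb, Fosl1, Jun and Atf3) and 5 below it (Fosl2, Junb, Jund, Egr1 and Egr2), of which Fosl1, Jun and Junb changed side in at least 1 alternative setting. Of the 10, 1 passed 2-fold upwards with FGF18 and 0 passed it downwards, where 0.993% of all genes passed it downwards and 2.52% in either direction. The shares of all genes upwards and downwards were 2.02% and 0.554% with no scaling between arrays, and 2.85% and 3.27% with no filter on dim probes. At a limit of 1.5-fold, Atf3 and Fos were higher, where 3.78% of all genes were, and Jund was lower, where 4.91% were. Fos stood at 1.502-fold and Jund at 1.528-fold lower, both closer to that limit than their error. The other 7 members lay within 1.5-fold.

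**Figure D3:**
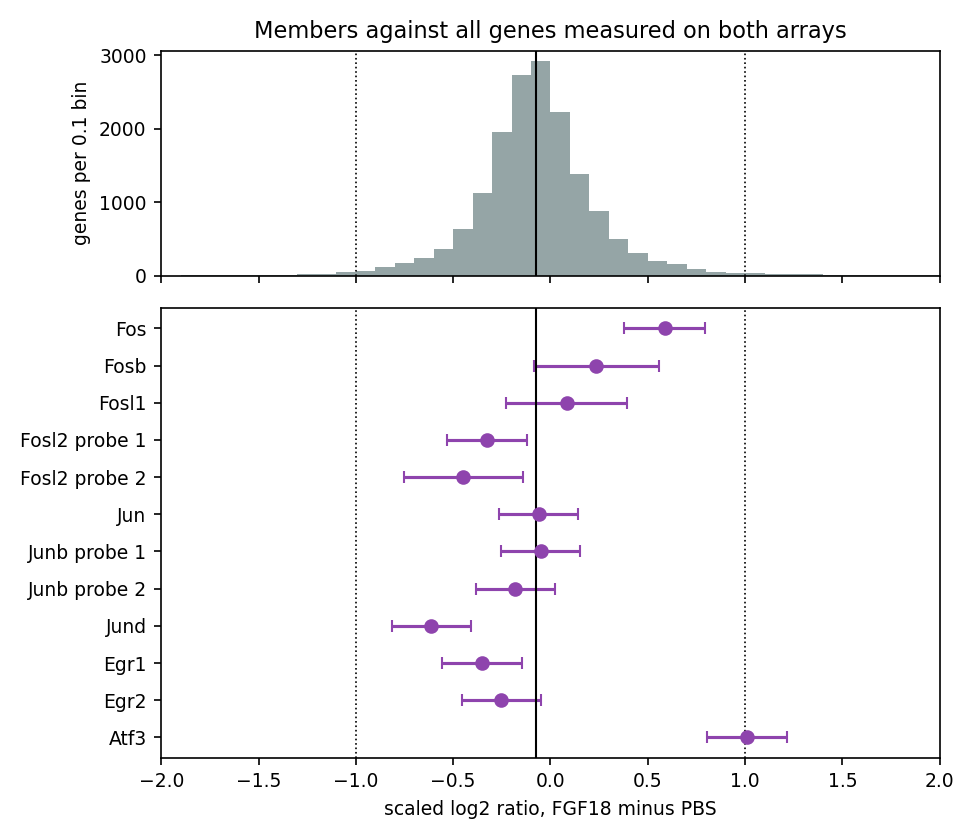
Top, number of genes per 0.1 step of the scaled log2 ratio of FGF18 over PBS, for genes measured on both arrays. Bottom, the ratio of each member probe with the error model's SD as bars; the solid line is the median of all genes (-0.07) and dotted lines mark 2-fold. Atf3 sits on the upper 2-fold line, Fos between it and the centre, and Jund is the lowest.

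The genes that act before and beside the members were counted in lists of known function. In the lists together, without the interferon genes, 5 of 153 measured genes passed 2-fold upwards with FGF18 and 4 downwards. This is 5.88% against 2.52% of all genes in either direction, and 8 of these 9 were among the skin targets of AP-1 given below. The lists were chosen with earlier results of these data known, so this share is not independent of those results. None of the 26 measured MAP kinase cascade genes passed 2-fold, and their median log2 ratio was -0.05. At 2.52% of all genes, finding none in a list as short as these is near that share. They ran from Braf, which encodes a kinase at the top of the cascade, at -0.47 to Map2k1, which encodes MEK1, at 0.38; the measured probes of Braf ran from -1.01 to -0.19. None of 8 SRF genes passed 2-fold (median -0.08), with Srf itself at -0.11, its cofactor gene Mrtfb highest at 0.13 and Mrtfa lowest at -0.32. Elk1, another SRF partner, was not well above background on either array. Myocd was measured on the PBS array alone, at a dim 29.1. Its bound of 1.42-fold lower with FGF18 does not include the error of that signal.

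Genes that restrain the pathway also lay near the centre. Dusp1, an immediate early phosphatase of p38, JNK and ERK kinases, gave 2660 with FGF18 and 1870 with PBS, a log2 ratio of 0.32. Dusp6, the ERK phosphatase that FGF signalling is known to induce, gave 15800 and 17400, a log2 ratio of -0.32. These were the highest and the lowest of the 8 phosphatase genes measured. None of the 8 passed 2-fold (median -0.07), where 2.52% of all genes did. Of the relatives and corepressors of the Egr proteins, none of 4 passed 2-fold (median -0.20). Nab2, a corepressor that Egr proteins induce, was highest at 0.15 and Egr4 lowest at -0.31, and Wt1 was not well above background.

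Of 13 AP-1 related leucine zipper factors measured, Batf2 was the only one past 2-fold, where 2.52% of all genes were. Batf2, an interferon-inducible partner of Jun proteins, gave 691 with FGF18 and 238 with PBS, a log2 ratio of 1.35. Its relative Batf stood at 0.11, Jdp2, a repressor that pairs with Jun, at -0.25, and Bach1, a repressor of oxidative stress genes, was lowest at -0.81 (115 and 177). The list's median was -0.16. Mafa was measured on the FGF18 array alone, at a dim 36.6. Its bound of 1.33-fold higher there does not include the error of that signal. The 14 CREB and ATF genes, the family of Atf3, had a median of -0.08 and none passed 2-fold; Crem was highest at 0.06 and Creb3l1 lowest at -0.75. Atf3 is also a gene of the integrated stress response, of which 15 others were measured with a median of -0.11 and none past 2-fold. Among them Ddit3, which encodes CHOP, stood at -0.11, Ddit4 was highest at 0.68 and Chac1 lowest at -0.76.

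The 32 other immediate early genes measured had a median log2 ratio of -0.11. None passed 2-fold in either direction, which is near the share of all genes, 2.52%, for a list of this length. Ptgs2, which encodes the inducible prostaglandin synthase COX-2, was highest at 0.72 (88.6 with FGF18 and 47.3 with PBS). Klf4, a factor of the epidermal barrier, was lowest at -0.69 (23400 and 33100). Ier2 stood at -0.34, Ier3 at -0.32, Nr4a1 at 0.21 and Myc at 0.25.

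Genes known as targets of AP-1 lay on both sides of 2-fold. Of 25 measured genes that AP-1 is known to regulate in skin, 4 passed 2-fold upwards with FGF18 and 4 downwards. Among all genes 1.53% and 0.993% did, but this list too was chosen with earlier results known. The median of the 25 genes was -0.27. The highest were Ccl2, a monocyte chemokine, at 2.30, and S100a8, an alarmin of stressed epidermis and myeloid cells, at 1.82. The other higher ones were Timp1, a metalloproteinase inhibitor, at 1.61, and Mmp13, a collagenase, at 1.20 (dim, 82.5 with FGF18 and 31.6 with PBS). S100a9, of the same list as S100a8, stood at -0.34 (1640 with FGF18 and 1830 with PBS). The 4 past 2-fold downwards were all genes of the cornified envelope or the granular layer. They were Sprr1a at -1.67, Flg (filaggrin) at -1.15, Sprr1b at -1.06 (dim, 49.9 with FGF18 and 91.8 with PBS) and Ivl (involucrin) at -1.01. Mmp10 and Il6 were not well above background on either array. None of 9 Egr1 target genes passed 2-fold (median -0.09), where 2.52% of all genes did in either direction. Thbs1 was highest at 0.73 and Pdgfa lowest at -0.31.

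**Figure D4:**
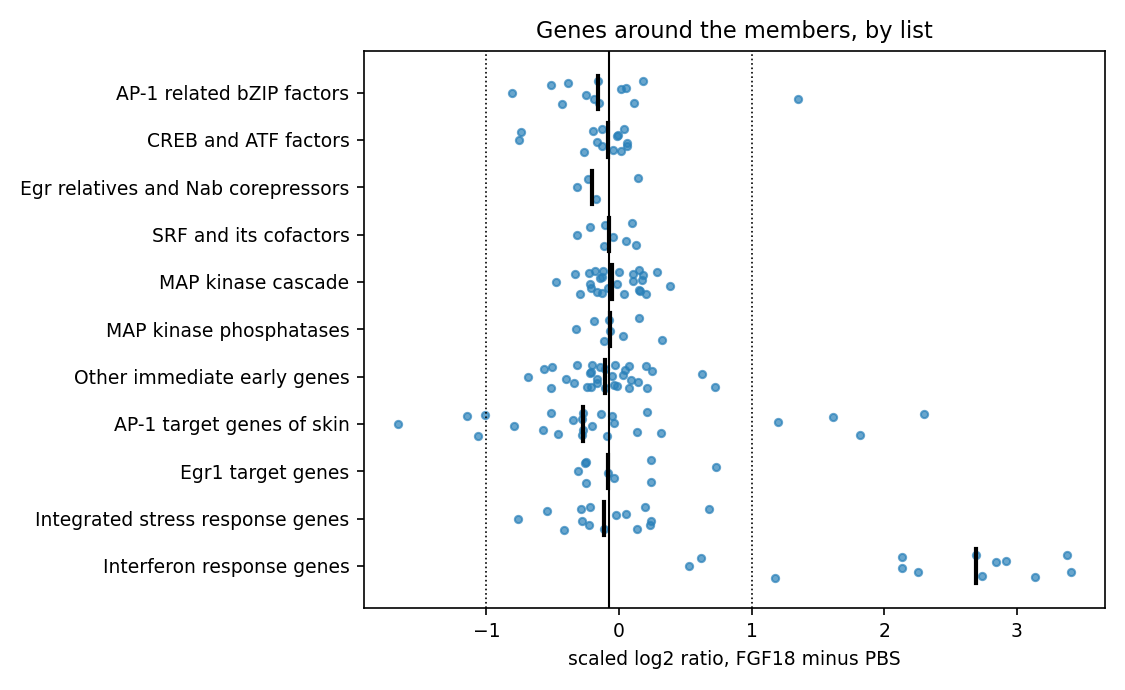
Scaled log2 ratio of FGF18 over PBS for each measured gene (points) of 11 gene lists, with each list's median as a thick bar; the solid line is the median of all genes (-0.07) and dotted lines mark 2-fold. The kinase, SRF, CREB and immediate early lists lie within 2-fold, the skin targets of AP-1 spread to both sides, and the interferon genes lie to the right.

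Most interferon response genes stood further apart between the same arrays than Atf3. All 13 were above 0 and 11 were at least 2-fold higher with FGF18, where 1.53% of all genes were. This list too was chosen with earlier results of these data known, so its share is not independent of them. The list had a median of 2.69 and a summed signal of 56694 against 11898. Summed signals in this paragraph are those before scaling, whereas the ratios include the scaling shift of -0.19. Among the 11 were Oasl2 at 2.13, Usp18 at 2.14, Isg15 at 2.25, Ifi44 at 2.69, Ifit1 at 2.73, Irf7 at 2.84, Cxcl10 at 2.91, Mx1 at 3.14, Ifit3 at 3.38 and Rsad2, the highest, at 3.41. Irf1 was the lowest of the list at 0.53. Of the 8 T and NK cell markers 6 were measured on both arrays, with 1 past 2-fold: Gzmb, which encodes granzyme B, at 4.44 (1430 with FGF18 and 58.1 with PBS). Klrd1 stood just under that line at 0.995 (866 and 382) and Nkg7 at 0.82. Gzma and Ncr1 were measured on the FGF18 array alone and were at least 19.0-fold and at least 3.89-fold higher there, while the T cell genes Cd3e, Cd3g and Cd3d stood at -0.45, -0.50 and -0.29. The summed signal of the 6 genes measured on both arrays, each as the mean of its probes, was 3480 against 1415. Of 7 macrophage markers 1 passed 2-fold, the Fc receptor gene Fcgr1 at 2.71, and Itgam stood just under that line at 0.98. Of the 7, 4 lay above 0 and 3 below, with a median of 0.13. The 3 below were Mrc1 at -0.71, Lyz2 at -0.45 and Csf1r at -0.32. The summed signal of the 7 was 50125 against 48203, a difference smaller than the scaling shift, and was mostly Lyz2 (37102 against 41094). Of the neutrophil markers, 4 of 7 were measured with none past 2-fold (895 against 674 summed over the 4), and the granule genes Elane and Ngp were not well above background. Of 6 mast cell markers 1, Hdc, passed 2-fold at 1.48. The median of the 6 was -0.13, with 2 above 0 and 4 below. The 6 keratinocyte markers had a median of -0.06 (453330 against 437170, again less apart than the scaling shift). The 9 anagen follicle markers had a median of -0.14 (230960 against 274860), and no gene of either list passed 2-fold. The fibroblast markers had a median of -0.47, the adipocyte markers of 0.28, the skeletal muscle markers of 0.24, the endothelial markers of 0.05 and the 3 measured erythrocyte markers of 0.11, also with none past 2-fold. What part any of these differences had in the ratios of Atf3, Fos, Batf2 or the AP-1 targets was not tested.

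The members were also measured under other ways of processing the arrays. Measured from the median of all genes, Atf3 ran from 1.02 to 1.19 and Fos from 0.55 to 0.77 over 12 alternatives, and Jund from -0.55 to -0.43. Fosl2, Egr1 and Egr2 also stayed below the median in all 12, whereas Jun changed side in 2, Junb in 1 and Fosl1 in 1 of the 11 that measured it. Several of the 12 could not move these distances, because they shift all ratios alike: median, detected-probe, spike-in and no scaling. The series value table shifts them nearly alike. Staying on 1 side in those settings was thus fixed in advance. On the scaled axis itself Fosl2, Jund, Egr1 and Egr2 turned positive when the arrays were scaled on spike-in transcripts, a scaling that moved the median of all genes to 0.74.

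**Figure D5:**
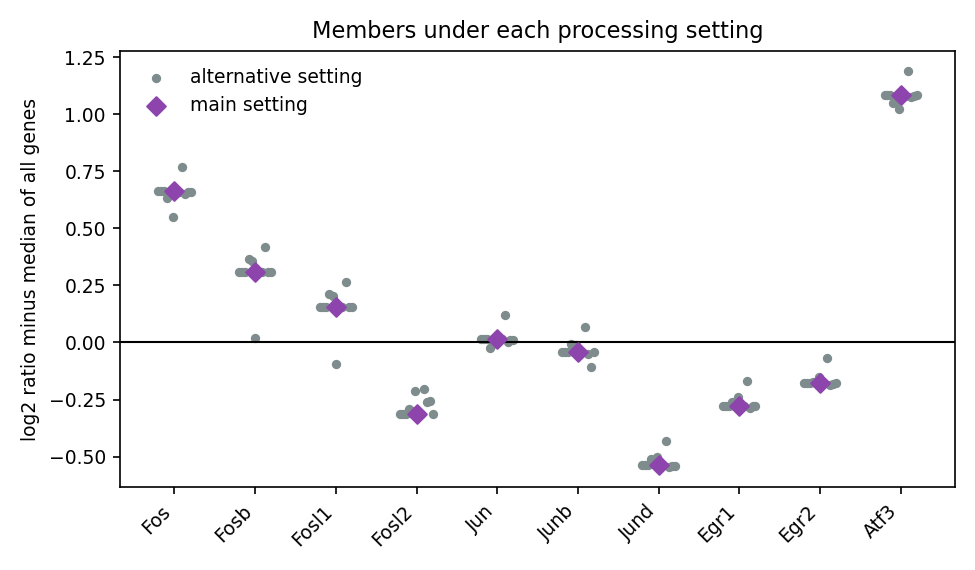
Log2 ratio of FGF18 over PBS minus the median of all genes for each member, under the setting used throughout (diamonds) and 12 alternatives (points). Atf3 and Fos lie above 0 and Fosl2, Jund, Egr1 and Egr2 below 0 in each, while Fosl1, Jun and Junb lie on both sides. Settings that shift all ratios alike repeat the main value and could not differ from it.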

How the data were processed

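Agilent Feature Extraction 9.5.3.1 processed the arrays, per the file headers, from Cy3-labelled cRNA. The deposited intensity values are its processed signals, background-subtracted and not scaled between arrays, with flags for spots above background and a modelled error per spot. The authors' series value table holds the same intensity values as ratios to a constant, here found to be 83.77 and 79.95, to within 0.0072 (log2).

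Outlier spots and control spots were left out. Log2 signals were scaled to each array's 75th percentile, spots averaged per probe, and probe ratios averaged per gene where at least 0.5 of a probe's spots were well above background on both arrays. Of 43379 non-control spots, 27050 (FGF18) and 26665 (PBS) were well above background, and 0 were saturated. A gene measured on 1 array has a bound against the lowest measured signal of the other, which leaves out technical error. Names came from RefSeq through accession, symbol or synonym for 23366, 6739 and 2906 of 41174 probes.

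The members and gene lists were chosen with earlier results of these data known. Named are all members, every list gene past 2-fold except 1 that is not reported here, each pathway list's highest and lowest gene, and Dusp1, Dusp6, Nab2, Srf, Ier2, Ier3, Nr4a1, Myc, Ddit3, Jdp2 and Batf. The 14 alternatives used R 4.3.3, limma 3.58.1 and Python 3.11.15; the computation was tested on simulated ratios.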

Additional observations from a re-analysis of the deposited data

How the results depend on the processing

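The median log2 ratio of the 10 members, -0.09, became 0.012 with scaling to the array median, 0.10 with no scaling, -0.017 with loess, 0.030 from the series value table, -0.15 with normexp background correction, -0.18 for the 8 members with signals over 100, and 0.73 with spike-in scaling; the last rests on 7 spike-in probes. Members at least 2-fold higher numbered 0 with normexp (Atf3 at 0.93), 3 with spike-in scaling (Atf3, Fos and Fosb), and 2 and 0 at limits of 1.5-fold and 3-fold; 1 member was lower at 1.5-fold. Pathway list genes past 2-fold in either direction, 20 of 166, became 37 with spike-in scaling and 31 at 1.5-fold. The cause of these shifts was not tested. Member and list counts under the remaining alternatives stayed within 1.5 times of these. The shares of all genes at least 2-fold higher and lower, 1.53% and 0.993%, moved by more: to 2.85% and 3.27% without a filter on dim probes (median of all genes -0.18), 2.02% and 0.554% with no scaling, 0.999% and 0.409% with normexp, 16.1% and 0.169% with spike-in scaling, and 1.29% and 0.502% over a signal of 100. No paired analysis was possible because each group has 1 array and the groups share only the replicate number 1. With 1 array a group, no replicate could be left out. Precision is limited by that number, and for Fosb, Fosl1 and the dimmer Fosl2 probe also by signals close to background.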
